A study of Mus musculus with 9 samples.

Results

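Chromatin binding of the NF-κB subunits RelA and RelB was described at 7 genes whose products act in cell adhesion, namely Vcam1, Icam1, Icam4, Icam5, Cd44, Sdc4 and Ninj1. A peak was assigned to a gene when its centre lay within 50 kb of the gene's start site. Overlapping peaks of different libraries were joined into one site, and because Icam1, Icam4 and Icam5 are neighbours on chromosome 9, a site in reach of more than one of them was assigned to each. The rule gave 29 sites at 6 h, built from 58 peaks, out of 14781 sites in the genome. It gave no site at 0 h.

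All cells were Nfkb2-/- MEFs, that is, fibroblasts of mouse embryos without the gene for p100, immortalized by the 3T3 protocol from embryos of C57BL/6 mice. The 4 groups were RelA ChIP at 0 h, RelA ChIP at 6 h, RelB ChIP at 0 h and RelB ChIP at 6 h, TNF being given at 10 ng/ml, with 2 libraries in each group, and every group carried the same deletion. No wild-type library, no RNA measurement and no binding of other NF-κB subunits entered this comparison, and the cell type could not be checked against marker genes in lists of peaks. The labels do not say whether both libraries of a group came from separate cultures, so p-values measure only the spread between these libraries. The 8 lists held between 14 and 194 peaks at 0 h and between 5192 and 7052 peaks at 6 h, with between 120352 and 162105 ChIP reads in peaks per library at 6 h. Total reads per library are unknown from these lists.

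RelA and RelB are DNA-binding NF-κB proteins that pair with p50 or p52 and recognise κB elements. TNF frees RelA:p50 from its inhibitors within the canonical pathway, whereas RelB is best known as an effector of the non-canonical pathway, in which p100 is its inhibitor and the source of p52. VCAM-1 and ICAM-1 are immunoglobulin-family proteins on the cell surface that leukocyte integrins grip during attachment and passage through tissue, and both genes are textbook NF-κB targets in endothelium and fibroblasts stimulated with TNF. ICAM-4 and ICAM-5 are relatives of ICAM-1 known mainly from red cells and from neurons. CD44 is the principal hyaluronan receptor, syndecan-4 is a heparan sulfate proteoglycan of focal adhesions, and ninjurin-1 is a small membrane protein first described in nerve injury and later in membrane rupture of dying cells.

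The sequences below are the κB matches within 100 bp of the centres of the 8 sites called in all 4 libraries at 6 h. They are shown because they resemble the element RelA and RelB recognise. The Sdc4 site 551 bp downstream and the Ninj1 site held further matches, more than 100 bp from the centre, which are not printed. The κB consensus was searched as GG, a purine, 3 bases of any kind, a pair of pyrimidines and CC, on both strands. Each sequence is read 5′ to 3′ on the strand of the named gene in mm9, capitals mark bases inside a match on either strand, and overlapping matches run together.
Vcam1, 241 bp downstream, chr3:115832425-115832454, minus strand: tctGGGTTTCCCCttgaaGGGATTTCCCtc
Icam1, 40050 bp upstream, chr9:20780299-20780328, plus strand: gtggggaggtGGAAATCCCCgggtgagtca
Icam1, 3924 bp upstream, chr9:20816434-20816463, plus strand: agcagaagctGGGGAGTTCCaagccagcct
Icam1, 6064 bp downstream, chr9:20826495-20826554, plus strand: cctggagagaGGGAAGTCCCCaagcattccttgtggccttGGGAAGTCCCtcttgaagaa
Cd44, 46313 bp upstream, chr2:102788098-102788127, minus strand: tcttttttctGGAATTCCCCcactgggctg
Sdc4, 551 bp downstream, chr2:164268751-164268780, minus strand: agctttcccgGGGGAATTCCgggcggtgcg
Sdc4, 13018 bp upstream, chr2:164282443-164282473, minus strand: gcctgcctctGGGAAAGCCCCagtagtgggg
Ninj1, 18456 bp downstream, chr13:49301290-49301320, plus strand: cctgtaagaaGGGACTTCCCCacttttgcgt

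A match lay within 100 bp of the centre at each of the 11 sites near these genes that were called in at least 2 libraries. The same held for 66.8% of all 4739 such sites in the genome, for 73.9% of the 1860 sites called in all 4 libraries, and for 21.1% of windows of the same length around the start sites of 22367 protein-coding genes. Vcam1 held a pair of matches separated by 5 bp, and the Icam1 site 6064 bp downstream held a pair separated by 19 bp. A match is a likeness of letters and not a mapped binding site, and the search read 201 bp around each centre whatever the width of the peaks. The match of the Sdc4 site 13018 bp upstream was covered in full by the peak of 1 library. The matches of the Cd44 site and of the Sdc4 site 551 bp downstream were covered by peaks of 2 libraries. At the other sites printed above, peaks of 3 or 4 libraries covered a match.

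The first comparison asked whether binding near these genes was seen before or only after TNF. Around the 7 genes, 50 kb to either side, the 4 unstimulated libraries listed no peak. At 6 h the RelA libraries had 17 and 15 such peaks and the RelB libraries had 11 and 15. The mean was 14.5 ± 2.52 peaks (SD, n = 4) at 6 h against 0 in each of 4 libraries at 0 h (two-sided exact permutation test over libraries, p = 0.0286, which is the lowest value this design can give). Across the genome 1.2% of 37273 annotated genes had a peak of any 0 h library within 50 kb, so a count of 0 among 7 genes is near that background. The 0 h lists were short for the whole genome, and with 0 in each of them the p takes its lowest value whatever the number of peaks at 6 h, so it reflects the length of the lists and is no result about these genes in particular. A site missing from a list fell short of the calling thresholds in that library, and was not shown to be empty.

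The second comparison asked which of the genes had peaks that both libraries of an antibody shared. A peak shared by both RelA libraries lay near all 7 genes, against 11.9% of annotated and 13.3% of protein-coding genes, and a peak shared by both RelB libraries lay near all 7, against 12.7% of annotated and 14.1% of protein-coding genes. A site called in all 4 libraries at 6 h also lay near all 7, against 8.88% of annotated genes. The median number of shared peaks per gene was 2 for RelA and 2 for RelB, against 0 over all genes and 1 over the genes with any such peak. Icam1, Icam4 and Icam5 drew on largely the same peaks, so the 7 genes stand for 5 loci. The genes were chosen with earlier results of these data known, so these counts describe them and do not test them against the background. With the log2 fold of each peak required to be at least 3, the number of genes with a shared peak fell to 4 for RelA and 4 for RelB. These were Icam1, Icam4, Icam5 and Sdc4, that is, the Icam cluster and the Sdc4 locus. No share over all genes is given at that fold.

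**Figure D1:**
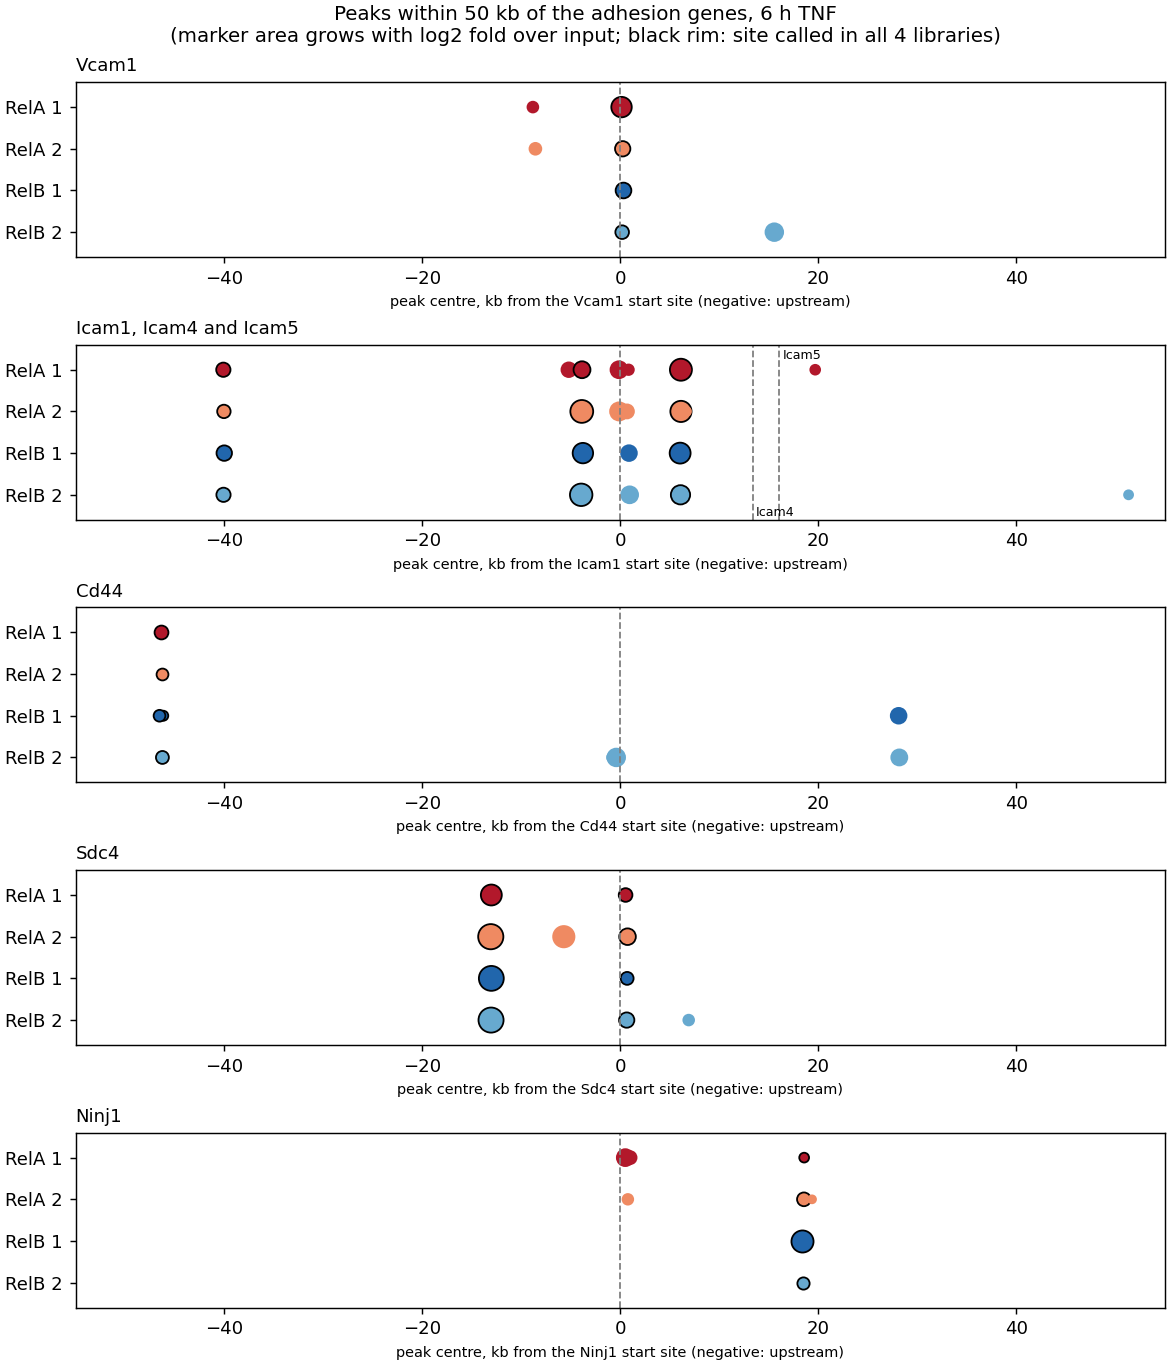
Peaks near the adhesion genes at 6 h, by distance of the peak centre from the start site in kb (x axis) and by library (rows), with 1 panel per locus, dashed lines at start sites and marker area growing with log2 fold over input. A black rim marks the 8 sites called in all 4 libraries; at Icam1 these lay 40050 bp and 3924 bp upstream and 6064 bp downstream, and some neighbouring markers cover each other.

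Of the 29 sites, 8 were called in all 4 libraries, 1 in 3 libraries, 2 in 2 libraries and 18 in 1 library. Sites of all 4 libraries made up 27.6% of the sites near these genes and 12.6% of the sites in the genome, and sites of 1 library made up 62.1% and 67.9%. The 33 peaks of the 8 shared sites held between 11 and 70 ChIP reads, with a median of 35. The 18 peaks called in 1 library held between 11 and 30 ChIP reads, with a median of 13.5, and the fewest reads in the fullest window of any peak at 6 h were 10 or 11, depending on the library. The fullest window of the peaks called in 1 library held a median of 12 reads, close to that lower limit, and the fullest window of the peaks of shared sites held a median of 19.

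**Figure D2:**
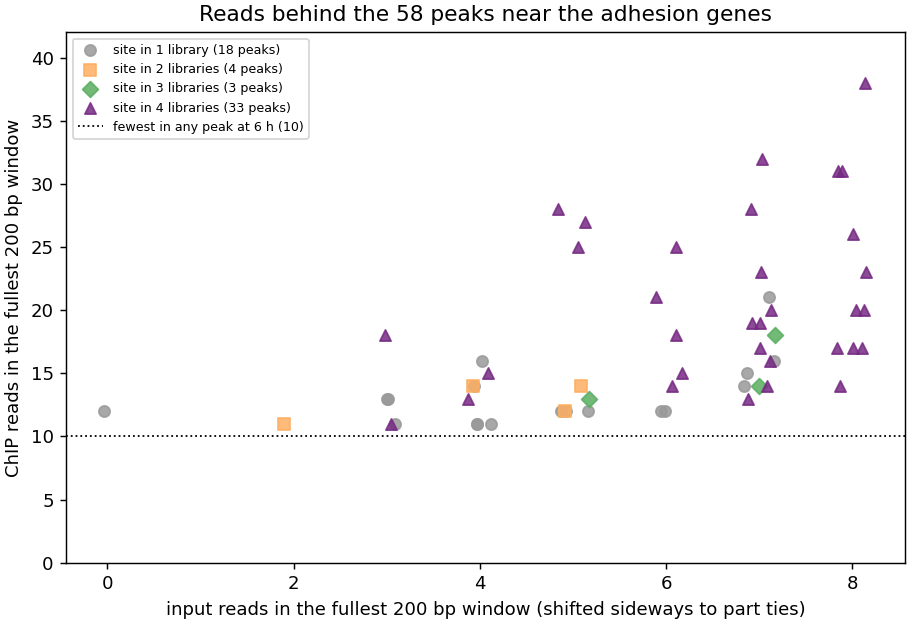
ChIP reads (y axis) against input reads (x axis) in the fullest 200 bp window of each of the 58 peaks near the adhesion genes, with marker shape and colour giving the number of libraries in which the site was called and a dotted line at the fewest reads in any 6 h peak. Windows of sites called in 1 library held between 11 and 21 ChIP reads, and windows of sites called in 4 libraries held between 11 and 38.

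Vcam1 lies on the minus strand of chromosome 3 (mm9, 115812938 to 115832606). Its one site called in all 4 libraries (115832071 to 115832660) covered the start of the gene, the 5′ UTR and the beginning of the coding sequence. The log2 fold over input there reached 3.58 in RelA library 1 and 2.89 in RelA library 2, compared with 2.94 in RelB library 1 and 2.65 in RelB library 2. RelA library 1 stood above the others, and RelA library 2 lay within the range of the RelB libraries, so the antibodies overlapped. The RelA peaks held 58 and 43 ChIP reads over 12 input reads each, and the RelB peaks held 27 and 31 over 10 and 11. These reads were counted over whole peaks, whereas each log2 fold comes from the strongest window alone.

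A second Vcam1 transcript in the annotation starts 231 bp downstream of the first, and peaks of all 4 libraries spanned that start. The pair of κB matches printed above lay just upstream of it, inside the peaks of 3 libraries. Beyond the promoter, the Vcam1 locus held peaks of single libraries only. An intronic peak 15576 bp downstream was called in RelB library 2 with 26 ChIP reads and a log2 fold of 3.21, above the 2.65 of that library at the promoter. In reads the intronic peak was the smaller, with 16 in its fullest window over 4 input reads, against 19 over 7 at the promoter. Upstream, RelA library 2 had a peak 8559 bp away with 18 reads and RelA library 1 had one 8814 bp away with 11 reads, and these did not overlap.

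Icam1 (chromosome 9, 20820404 to 20833241, plus strand) is followed at once by Icam4 (20833817 to 20834975) and Icam5 (20836482 to 20843480). The cluster had 12 sites, the most of any of the 5 loci, and 10 of them lay within 50 kb of all 3 genes. Each of the 3 genes had 11 sites. The strongest shared site of the cluster lay in an intron of Icam1, 6064 bp downstream of its start (20826256 to 20826681), 7349 bp upstream of Icam4 and 10014 bp upstream of Icam5. Its log2 fold was 3.80 and 3.68 with the RelA antibody and 3.65 and 3.43 with the RelB antibody, and it held between 48 and 70 ChIP reads per library. Values of the 4 libraries were close together, with both RelA values above both RelB values by a small margin.

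The second shared site lay between genes, 3924 bp upstream of the Icam1 start (20816160 to 20816801). Its log2 fold was 3.10 and 3.91 with the RelA antibody and 3.58 and 3.86 with the RelB antibody, so both RelB values fell between the RelA values. The third, 40050 bp upstream (20780213 to 20780496), was in reach of Icam1 but not of Icam4 or Icam5. It had log2 folds of 2.74 and 2.62 with the RelA antibody and 2.91 and 2.73 with the RelB antibody. That site lay in an intron of S1pr2, a receptor for sphingosine-1-phosphate, 883 bp downstream of the S1pr2 start, so S1pr2 and not Icam1 was the nearest coding gene.

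At the Icam1 promoter itself a site 117 bp upstream of the start (20820245 to 20820329) was called in both RelA libraries and in neither RelB library. It was the 1 site of the 29 with this pattern, which 2.65% of all 14781 sites showed. It held 22 and 19 ChIP reads over 6 input reads each, with log2 folds of 3.10 and 3.27. Its sequence, shown because of that pattern and picked after its values were seen, is printed on the plus strand with its 1 κB match in capitals.
Icam1, 117 bp upstream, chr9:20820245-20820329, plus strand: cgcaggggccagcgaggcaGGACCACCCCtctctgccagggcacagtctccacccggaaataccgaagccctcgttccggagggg
The match lay inside the peak of 1 of the 2 RelA libraries. In an intron, a site 962 bp downstream of the start (20821150 to 20821582) was called in both RelB libraries, with log2 folds of 2.94 and 3.10, and in RelA library 1, with 2.20. RelA library 2 had its own peak of 30 ChIP reads and a log2 fold of 2.70 beside it, 686 bp downstream, which did not overlap. When peaks up to 200 bp apart were joined, an alternative chosen after seeing the data, this became a site of all 4 libraries and the count of such sites rose from 8 to 9. The nearest RelB peaks were centred 895 and 962 bp downstream of the start, and whether RelA and RelB differed 117 bp upstream was not tested, since the RelB lists give no value there.

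The other sites of the cluster were called in 1 library each. RelA library 1 had peaks of 14 and 12 reads 5187 and 4354 bp upstream of Icam1. Side by side in the intron, RelA library 2 had a peak of 13 reads 6687 bp downstream and RelA library 1 a peak of 12 reads 6731 bp downstream. The only peak inside Icam5 was an intronic one of RelA library 1, 3629 bp downstream of the Icam5 start, with 12 reads and a log2 fold of 2.09. A peak of RelB library 2 with 11 reads lay 35284 bp downstream of Icam5 and 37949 bp downstream of Icam4, outside the reach of Icam1. No peak was called within Icam4 or between Icam4 and Icam5, so the assignment of both genes rested on peaks in or upstream of Icam1, save for these 2 peaks of single libraries.

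Cd44 (chromosome 2, 102651298 to 102741822, minus strand) had its one site of all 4 libraries between genes, 46313 bp upstream of the start (102787868 to 102788403). No other coding gene started within 50 kb of it. The log2 fold was 2.68 and 2.40 with the RelA antibody and 2.38 and 2.55 with the RelB antibody, with between 11 and 35 reads per peak. RelB library 1 had 2 separate peaks in this site, joined through the peaks of the other libraries, and the higher of its 2 values is given. This was the weakest of the 8 shared sites, at the 8.87th percentile of mean log2 fold among the 1860 sites of all 4 libraries, and at a limit of 25 kb Cd44 had no site of all 4 libraries.

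Both RelB libraries and neither RelA library had a peak in an intron of Cd44, 28202 bp downstream of the start (102713472 to 102713769). It held 12 and 15 ChIP reads over 2 and 6 input reads, with log2 folds of 2.94 and 2.98. Its fullest windows held 11 and 12 reads, close to the fewest in any peak of these libraries, 10 and 11. It was the 1 site of the 29 called in both RelB libraries alone, a pattern that 3.90% of all 14781 sites showed. Neither pattern was thus more than 1 site here. The κB match that both peaks covered is printed for that reason, picked after its values were seen, and it was a match on each strand.
Cd44, 28202 bp downstream, chr2:102713667-102713696, minus strand: aaattctgaaGGAAATTCCCtccatatgat
Close to the Cd44 start only RelB library 2 had peaks, 393 bp upstream with 16 reads and a log2 fold of 3.21, and 773 bp upstream with 14 reads and 2.23. The near-promoter peaks of Cd44 therefore had no replicate.

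Sdc4 (chromosome 2, 164249747 to 164269387, minus strand) had 2 sites of all 4 libraries. The stronger lay 13018 bp upstream (164282340 to 164282470), with log2 folds of 3.65 and 4.22 with the RelA antibody and 4.18 and 4.21 with the RelB antibody and between 28 and 50 ChIP reads. RelA library 1 was the low value and the other 3 libraries lay together. Its mean log2 fold of 4.06 was the highest near any of the 7 genes, at the 90.4th percentile of the 1860 sites. It lay 59 bp upstream of the start of Sys1, a gene for a Golgi membrane protein, and Sys1 was the nearest coding gene. With 4 coding genes beside Sdc4 starting within 50 kb, the lists do not tie this site to one gene.

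The other Sdc4 site (164268563 to 164269110) was centred in an intron of the longer transcript, 551 bp downstream of its start, and reached into an exon with UTR and coding sequence. A shorter Sdc4 transcript starts 701 bp downstream of the longer one, and the peaks of 3 libraries spanned that start. Log2 folds were 2.66 and 3.06 with the RelA antibody and 2.55 and 2.88 with the RelB antibody, with the values of the antibodies interleaved. Peaks of single libraries were found 5690 bp upstream in RelA library 2, with 12 ChIP reads over 0 input reads and a log2 fold of 3.70, and 6927 bp downstream in RelB library 2, with 12 reads over 4. Both peaks held 12 ChIP reads, and the second had a log2 fold of 2.23.

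Ninj1 (chromosome 13, 49282854 to 49291613, plus strand) had its site of all 4 libraries past the end of the gene, 18456 bp downstream of the start (49300918 to 49301702). This site lay in an intron of 1110007C09Rik, 10085 bp downstream of that gene's start. Log2 folds were 2.09 and 2.67 with the RelA antibody and 3.81 and 2.45 with the RelB antibody, the widest spread between libraries of one antibody among the 8 sites. RelB library 1 stood apart at 3.81, and RelB library 2 lay between the RelA values. The fullest windows held 14 and 23 ChIP reads with the RelA antibody and 19 and 13 with the RelB antibody, over 7 input reads each. In these reads RelB library 1 did not stand apart, since it lay between the RelA libraries. In an intron close to the start the RelA libraries had 3 peaks that did not overlap, 521 and 1001 bp downstream in library 1, with 15 and 27 reads, and 783 bp downstream in library 2, with 20 reads. The RelB libraries had no peak there. A last peak of 12 reads in RelA library 2, 19388 bp downstream, completed the locus.

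**Figure D3:**
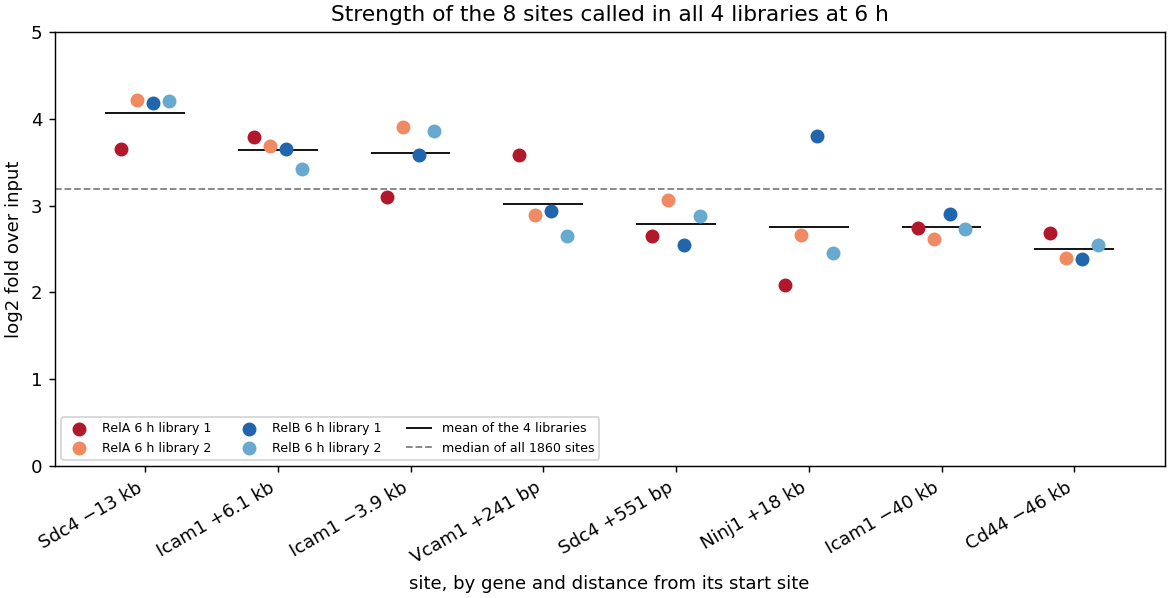
Log2 fold over input (y axis) of the 8 sites called in all 4 libraries at 6 h (x axis, by gene and distance from its start), with 1 point per library, a bar at the mean of the 4 libraries and a dashed line at 3.19, the median of the means of all 1860 such sites. Means ran from 4.06 at the Sdc4 site 13018 bp upstream to 2.50 at the Cd44 site, and 3 of the 8 lay above the dashed line.

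Ordered by mean log2 fold over the 4 libraries, the 8 sites ran from Sdc4 13018 bp upstream (4.06) through Icam1 6064 bp downstream (3.64), Icam1 3924 bp upstream (3.61), Vcam1 (3.02), Sdc4 551 bp downstream (2.79), Ninj1 (2.75) and Icam1 40050 bp upstream (2.75) to Cd44 (2.50). Every pair of neighbours in this order overlapped in the range of its library values. The values of the Cd44 site, between 2.38 and 2.68, lay below all values of the first 3 sites. The Vcam1 promoter was at the 38.3rd percentile of the 1860 sites and the Icam1 intronic site at the 76.2nd.

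The third comparison asked whether RelA and RelB differed in strength at the 8 sites. Log2 folds were centred on the median of each library and tested with limma on all 1860 sites called in all 4 libraries, with Benjamini-Hochberg adjustment over those sites. None of the 8 sites passed an adjusted p of 0.05, and none had an unadjusted p under 0.05, against 0.591% of the 1860 sites called (11 sites, 8 higher for RelA and 3 higher for RelB) and 313 sites at an unadjusted p under 0.05. The RelA value was the higher at 4 of the 8 sites and the RelB value at 4, with a median difference of 0.05, against -0.01 over all sites.

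At the Vcam1 promoter the centred log2 fold was higher for RelA by 0.53 (SE 0.31, n = 2 libraries against 2, 95% interval -0.15 to 1.20, limma adjusted p = 0.416). That value rested on single libraries, being 0.23 without RelA library 1 and 0.88 without RelA library 2, where the 95% interval of 0.12 to 1.64 left out 0 (limma adjusted p = 0.263). On reads in the fullest window in place of folds, the difference at Vcam1 was 0.59 (95% interval 0.12 to 1.07, limma adjusted p = 0.113), and at the Icam1 site 3924 bp upstream it was -0.50 (95% interval -0.98 to -0.03, limma adjusted p = 0.188), and both had an unadjusted p under 0.05 but did not pass adjustment. At the Ninj1 site RelA minus RelB on reads in the fullest window was 0.18 (95% interval -0.30 to 0.66, limma adjusted p = 0.702). On log2 folds the difference at that site had the other sign, -0.67 (SE 0.42, 95% interval -1.60 to 0.26, limma adjusted p = 0.456), and it was 0.01 without RelB library 1. Without RelB library 2 it was -1.43 (95% interval -2.52 to -0.33, limma adjusted p = 0.435) and without RelA library 2 it was -0.95 (95% interval -1.81 to -0.09, limma adjusted p = 0.295). The Icam1 intronic site differed by 0.28 (95% interval -0.31 to 0.88) and the Icam1 site 3924 bp upstream by -0.13 (95% interval -0.84 to 0.58). The Sdc4 sites differed by 0.23 near the start and by -0.17 upstream, the Cd44 site by 0.16, and the Icam1 site 40050 bp upstream by -0.06. On log2 folds of all 4 libraries each interval held 0 and reached past 0.5 in at least one direction, so these libraries neither set RelA and RelB apart at these sites nor show that they bound alike.

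**Figure D4:**
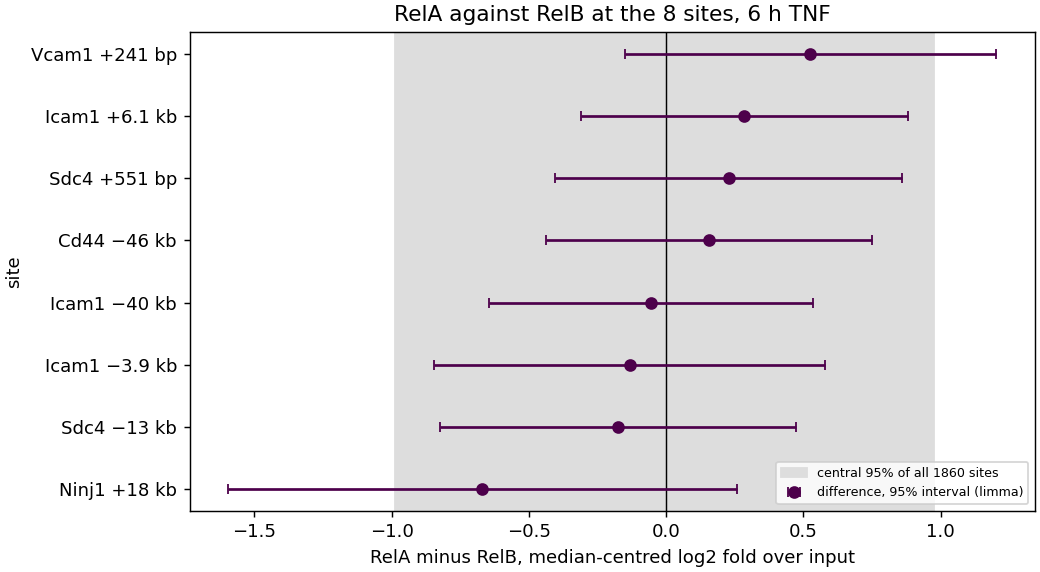
RelA minus RelB in median-centred log2 fold over input (x axis) at the 8 sites (y axis), with points at the limma estimate, bars for its 95% interval and a grey band for the central 95% of the differences of all 1860 sites, -0.99 to 0.98. All 8 points lie inside the band, from -0.67 at Ninj1 to 0.53 at Vcam1, and every bar crosses 0.

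Other adhesion genes were read from a list of 44 names, of which 43 were found in the annotation. A peak of both RelA libraries lay near 7 of the 43 (16.3%, against 11.9% of annotated genes), a peak of both RelB libraries near 8 (18.6%, against 12.7%), and a site of all 4 libraries near 6 (against 8.88%). The median number of shared peaks per gene was 0 for either antibody, as over all genes, and 14 of the 43 had no peak of any 6 h library, against 60.4% of annotated genes. Among protein-coding genes the shares were 13.3% for RelA and 14.1% for RelB, so for peaks shared by both libraries the list lay near the background. Genes without any peak were less frequent in the list than among annotated genes, which include non-coding ones. No share of protein-coding genes is given for that count or for sites of all 4 libraries. Nothing is read from the genes by which the list differed. Within 25 kb, 1 gene of the list had a peak of both RelA libraries, against 6.85% of annotated genes and 6 of the 7 genes described above. Within the same distance 2 genes of the list had a peak of both RelB libraries, against 7.11% of annotated genes and 6 of the 7.

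By group, the immunoglobulin family had 3 of 17 genes with a shared RelA peak and 3 of 17 with a shared RelB peak, and selectins and their ligands, hyaluronan genes and cadherins had 1 gene each for either antibody out of 6, 5 and 5. Integrin chains had 1 of 6 for RelA and 2 of 6 for RelB. None of Sdc1, Sdc2, Sdc3 and Ninj2, the other syndecans and the other ninjurin, had a peak in any 6 h library. Sele, the gene of E-selectin, and Icam2 were also without a peak.

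For the 6 genes of the list with a site of all 4 libraries, the site with the highest mean log2 fold is given, and each of these lay at a distance. Bcam, a laminin receptor of the immunoglobulin family, had log2 folds of 4.70 and 4.58 with the RelA antibody and 4.17 and 4.09 with the RelB antibody at a site 46563 bp upstream. Cdh11, a cadherin of mesenchymal cells, had 2 sites of all 4 libraries, and the position of the weaker is not given. The stronger had 3.79 and 4.13 with the RelA antibody and 4.01 and 4.53 with the RelB antibody 43854 bp downstream. Selplg, the main ligand of P-selectin, had a site 46632 bp downstream with a mean of 3.83, and Itgb2, the beta chain of the leukocyte integrins that bind ICAM-1, had one 40141 bp downstream with a mean of 3.77. Cd47, a partner of thrombospondin and SIRPα, had one 25994 bp downstream with a mean of 3.12, and Has2, a hyaluronan synthase, had one 35038 bp downstream with a mean of 2.14. All of the sites given here lay further from the start than the sites of Vcam1 and Sdc4 described above. The Cd44 site 46313 bp upstream and the Icam1 site 40050 bp upstream lay within the range of these distances. Distance therefore did not part the list from all of the 7 genes. The Itgb2 site joined RelB peaks that did not overlap each other. Genes nearer to the sites of this list are not given, so no site is tied to the gene it is named with.

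Genes with a profile like Vcam1 or Icam1 were sought by the strongest log2 fold within 50 kb in each of the 8 libraries, with 0 where no peak was listed, over 22342 protein-coding genes. For Vcam1 these values were 3.58 and 2.89 with the RelA antibody and 2.94 and 3.21 with the RelB antibody. The value of RelB library 2 came from its intronic peak and not from the promoter site. The 3 nearest to Vcam1 were Cotl1, Klhl36 and 4632415K11Rik, at a Euclidean distance of 0.09, with strongest log2 folds of 3.58 and 2.83 with the RelA antibody and 2.91 and 3.14 with the RelB antibody. For Icam1 the values were 3.80 and 3.91 with the RelA antibody and 3.65 and 3.86 with the RelB antibody. Those of library 1 came from the site 6064 bp downstream and those of library 2 from the site 3924 bp upstream. The 3 nearest to Icam1 were Ficd, Sart3 and Gm3511, at 0.11, with 3.74 and 3.97 with the RelA antibody and 3.68 and 3.93 with the RelB antibody. Each trio is a set of neighbours with identical values, drawn from shared peaks, and the peaks of the second trio are those of the Selplg site. Likeness in 8 values of which 4 were 0 is a description of peak strength and of nothing further.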

How the data were processed

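ChIP-seq peak lists of 8 libraries from Nfkb2-/- MEFs were used. The authors removed adapters with cutadapt, mapped them with Bowtie (genome mm9, unique hits only) and ran cisGenome on each library against Nfkb2-/- input, so input noise was shared by all lists. The deposited lists give a false discovery rate (a q-value, under 0.1), a log2 fold over scaled input in the strongest window, and counts of ChIP and input reads without normalization. Versions of cutadapt and Bowtie are not given in the sources used here. The input library had no list and was not analysed here.

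The genes and lists were chosen with earlier results of these data known. Peaks overlapping by at least 1 bp were joined. Start sites came from the GENCODE annotation of mm9 (37273 genes), and sequences from the mm9 genome. Named were all 7 genes with every site, genes of the adhesion list with a site of all 4 libraries (at most 8, by mean log2 fold), and the 3 genes most like Vcam1 and Icam1. Peak numbers were compared by an exact permutation test, and RelA with RelB by limma 3.58.1 (lmFit, eBayes). These steps were tested on simulated data. Alternatives covered the FDR, fold, distance, start sites, overlap, normalization, replicate block, equal peak numbers, motif window and each library left out. A window of 11 reads has an exact 95% Poisson interval of 5.49 to 19.7 and one of 38 reads 26.9 to 52.2, for counting error only. Python 3.11.15 and R 4.3.3 were used.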

Additional observations from a re-analysis of the deposited data

How the results depend on the processing

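The difference in peaks near the genes between 6 h and 0 h was 14.5 as reported and with the start of any transcript, 11 with an FDR under 0.01, 5.5 with a log2 fold of at least 3, 11.5 at 25 kb, 18.8 at 100 kb and 12.5 with the 6 h lists alone cut to 5192 peaks each, the 0 h lists being left as they were. The exact permutation p was 0.0286 each time, which the counts of 0 at 0 h fix. Without any 1 library it was between 13.7 and 15.7, and p could not go below 0.0571. With time permuted within same-numbered libraries, the replicate block, the difference of 14.5 had an exact permutation p = 0.125, the smallest such pairs allow. Replicate numbers did not pair RelA with RelB libraries (correlation of deviations -0.003 across 1860 sites).

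With a log2 fold of at least 3 the sites of all 4 libraries fell from 8 to 3, and over the genome from 1860 to 714. The genes with a shared peak fell from 7 to 4 for either antibody. The other adhesion genes with one fell from 7 to 4 for RelA and from 8 to 4 for RelB. No share over all genes is given at that fold. At 25 kb the other adhesion genes with a shared peak were 1 for RelA and 2 for RelB. With 1 library standing for its antibody they were 15 to 16 for RelA and 16 to 18 for RelB, since no second library was asked for.

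No site near the genes passed the RelA against RelB test under any of the 11 alternatives (3 of the 8 sites were left at a log2 fold of at least 3), while calls among all sites were 11 in the reported fit, 85 with the replicate block, 143 on reads in the fullest window, 30 at an FDR under 0.01, 58 at a log2 fold of at least 3, and 0 to 31 with a library left out. On reads, RelA minus RelB turned to 0.14 at Icam1 40050 bp upstream and to 0.18 at Ninj1, and 2 of the 8 sites, Vcam1 (0.59) and Icam1 3924 bp upstream (-0.50), had an unadjusted p under 0.05. With a library left out, it ranged from 0.23 to 0.88 at Vcam1, from -0.53 to 0.32 at Icam1 3924 bp upstream, from -0.22 to 0.035 at Icam1 40050 bp upstream, from -1.43 to 0.011 at Ninj1 and from -0.45 to 0.17 at Sdc4 13018 bp upstream. The causes were not tested. The κB match was found at 11 of 11 sites as reported, at 8 within 50 bp, 10 with the stricter motif, and 9 around the strongest window, which was chosen after seeing the data. Over all such sites in the genome, the share with a match was 66.79% as reported. It was 44.97% within 50 bp, 55.26% with the stricter motif and 65.56% around the strongest window. Around the strongest window the genome share thus changed little, while the share near these genes fell from 100% to 81.8%. Whether these changes differed was not tested. The sites without a match around the strongest window were the Icam1 intronic site and the Icam1 site 3924 bp upstream. The matches printed for both sites lay near the centre and not around that window.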
